A study of Mus musculus with 6 samples.

Results

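The T-cell receptor genes of the mouse lie in 3 stretches of the genome. Examined here are the transcribed loci within them that carry no gene symbol in the expression tables. Genes with a symbol, such as Prss2, lie there too and were left out. The loci without a symbol were found by position. A member is a row without a symbol, with an FPKM above 0, whose mm9 locus lies wholly within chr14:53030603-54855159 (Tcra with Tcrd inside it), chr6:40837494-41602768 (Tcrb) or chr13:18958681-19449544 (Tcrg). FPKM stands for fragments scaled by a length and by the size of the library. The length used is not given, and the deposited values do not scale with the span of the locus. Pooled over the 6 libraries this gave 759 loci, 385 in Tcra/Tcrd, 193 in Tcrb and 181 in Tcrg, of 566898 loci without a symbol above 0 FPKM and 710992 loci of any kind. The RNA came from thymocytes sorted at the double-negative 1 (DN1) stage of mice aged 5 to 8 weeks. The gate took cells without lineage markers, surface TCRb, CD8a or CD25 that bore CD44. The labels give 3 libraries with the genotype WT and 3 with the genotype Tle134-deficient, a name taken here to mean Tle1, Tle3 and Tle4, members of the Groucho/Tle family of corepressors. The promoter or Cre line behind the deficiency is not named in the labels used here. Nor do they say that replicates are different mice, so a p-value speaks of these 6 libraries and of a spread that may be technical.

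T-cell receptor genes are assembled from separate variable (V), diversity (D) and joining (J) segments by V(D)J recombination, and splicing then links the joined exon to a constant (C) segment. Tcrb, Tcrg and Tcrd rearrange early in the thymus and Tcra rearranges last, after the beta chain has been tested. Unrearranged loci are also transcribed, from promoters before V, D and J segments, so RNA from these regions does not by itself mean that a receptor chain is made. Tcrd lies inside Tcra, and its constant segment Trdc sits before the long array of Tcra joining segments that ends at the constant segment Trac. The Tcrb region has 2 clusters, each with joining segments followed by a constant segment, Trbc1 and Trbc2. Tcrg has 4 constant segments, Tcrg-C1 to Tcrg-C4, each with joining segments nearby.

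Segments were placed by order and by distance from a neighbouring gene that has a symbol in the tables (Dad1 for Tcra/Tcrd, Prss2 for Tcrb, Stard3nl for Tcrg). The segment spacing came from GENCODE M21, which is drawn on the later build GRCm38, and no coordinate was converted. The spacing from each of these genes to a second landmark (Sall2, Moxd2 and Amph) differed between the tables and GENCODE by 1, 0 and 2 bases. The placement was not checked against mm9 sequence, and all positions given are those of the tables.

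The joining segments are shown first, because the edges of the longest receptor loci were compared with them. The 5 printed here, from the GENCODE M21 transcripts, are those nearest the upstream edge of the loci over Trdc, Tcrg-C1, Tcrg-C2 and Tcrg-C4, with the second delta segment for comparison. Capitals mark the first run of the codons TTN, GNN, NNN and GGN, a loose form of the phenylalanine and glycine motif that joining segments share.
Trdj1: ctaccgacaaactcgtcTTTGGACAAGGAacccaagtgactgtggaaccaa
Trdj2: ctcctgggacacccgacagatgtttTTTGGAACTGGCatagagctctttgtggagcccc
Trgj1: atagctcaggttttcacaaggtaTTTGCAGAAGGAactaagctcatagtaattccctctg
Trgj2: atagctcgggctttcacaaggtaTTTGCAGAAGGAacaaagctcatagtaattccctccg
Trgj4: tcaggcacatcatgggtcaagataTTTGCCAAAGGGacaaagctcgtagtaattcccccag

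The pattern was searched on the coding strand only. It was found in 65 of the 80 joining segments annotated in the 3 regions (81.2%), in 47 of 60 of Tcra, 12 of 14 of Tcrb and all of the 2 of Tcrd and 4 of Tcrg. A match describes the letters and nothing else.

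The constant segments of Tcrb and of Tcrg are near copies, which bears on every value given for them, since a read from a shared stretch cannot be assigned to 1 copy with certainty. The first 90 coding bases of Trbc1 and Trbc2 are identical, and over the whole coding part the 2 copies share 495 of 518 bases (95.6%). Their last 90 coding bases hold 14 of the differences, marked in capitals.
Trbc1: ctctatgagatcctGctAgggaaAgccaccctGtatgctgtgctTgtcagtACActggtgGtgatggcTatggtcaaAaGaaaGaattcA
Trbc2: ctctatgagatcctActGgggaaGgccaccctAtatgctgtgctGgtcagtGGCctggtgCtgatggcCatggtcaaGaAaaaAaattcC

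Among the gamma constant segments, the coding parts of Tcrg-C1, Tcrg-C2 and Tcrg-C3 share 96.9% to 97.4% of aligned bases with each other, and Tcrg-C4 shares 76.5% to 76.9% with them. The first 90 coding bases show this, with capitals marking differences from Tcrg-C1.
Tcrg-C1: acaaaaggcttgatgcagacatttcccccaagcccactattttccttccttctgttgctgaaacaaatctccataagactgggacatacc
Tcrg-C2: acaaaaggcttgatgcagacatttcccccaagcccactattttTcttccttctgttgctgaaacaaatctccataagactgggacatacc
Tcrg-C3: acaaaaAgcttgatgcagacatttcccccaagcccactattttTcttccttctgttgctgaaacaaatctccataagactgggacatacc
Tcrg-C4: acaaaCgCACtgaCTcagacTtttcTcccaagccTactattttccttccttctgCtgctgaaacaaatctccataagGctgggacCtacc

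The libraries differed in depth and in how finely they were assembled. Taking each deposited FPKM interval as 2 SD of the fragments counted either way, the tables imply 2915680 to 8087650 fragments per library, and 97 to 161 members fell in each. WT replicate 2 and labelled-deficient replicate 2 had the most loci without a symbol (138037 and 160838, against 49861 to 98740 in the others). Among those of at least 300 bases and at most 1000 FPKM, the median was 14.6, 5.09 and 16.6 FPKM across WT. It was 20.5, 7.06 and 7.04 FPKM across labelled-deficient libraries, so WT replicate 2 and labelled-deficient replicates 2 and 3 were low. The label check went against the genotype. Tle1 was at 1.37, 1.19 and 3.61 FPKM across WT and 11.5, 11.3 and 11.1 FPKM across labelled-deficient libraries, and Tle3 was at 26.1, 35.9 and 23.4 FPKM against 82.6, 77.5 and 58.6 FPKM. Tle4 was at 17.9, 18.8 and 14.5 FPKM against 27.8, 35.2 and 17.8 FPKM. These values include reads outside any deleted exons. The group is therefore called labelled-deficient, and every direction below follows that label.

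FPKM was highest in the shortest loci. Members were 150 to 279619 bases long, with a median of 333 bases against 264 bases for all loci without a symbol. The 210 members shorter than 200 bases had a median of 105897 FPKM, and the 138 members from 200 bases to under 300 bases a median of 40.1 FPKM. The 411 members of 300 bases or more had a median of 13.4 FPKM, against 7.26 FPKM for such loci over the whole genome. The members under 200 bases rested on a median of 11.9 implied fragments. Of the 131 members above 10000 FPKM, only 2 were 300 bases or longer. These 2 were at chr14:54495616-54496175 over Trav21-dv12 in WT replicate 3 (200989 FPKM, 13.0 implied fragments) and at chr13:19434111-19436459 over Tcrg-C4 in labelled-deficient replicate 2 (105904 FPKM, 10.1 implied fragments). Levels of single loci are therefore given below for the 409 members of at least 300 bases and at most 1000 FPKM, a limit chosen after the values were seen.

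**Figure D1:**
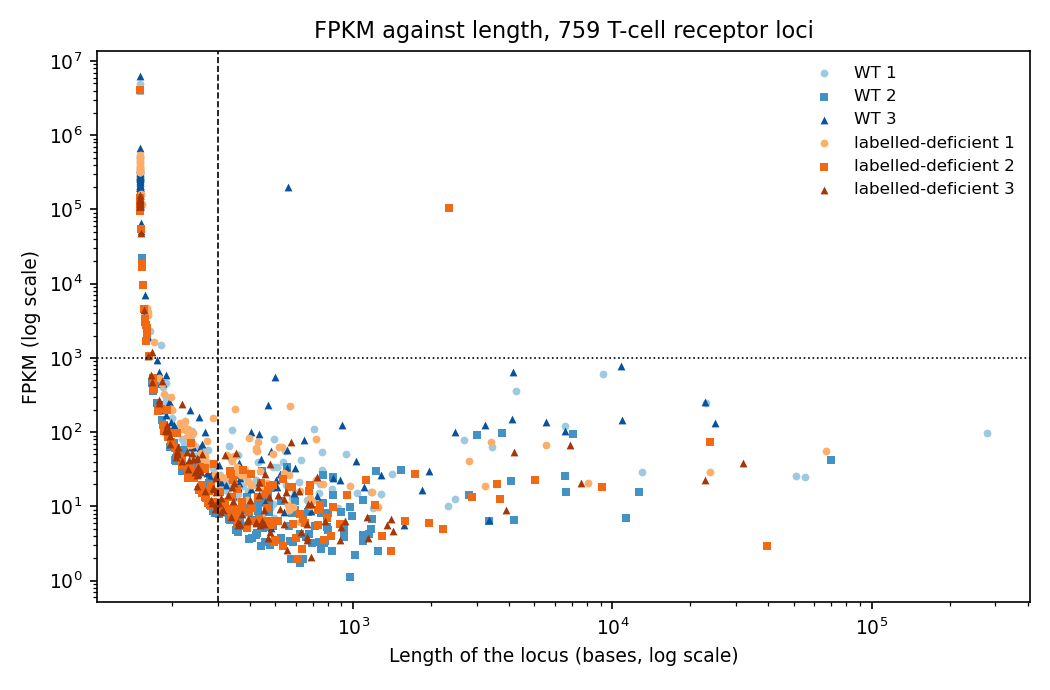
FPKM (log axis) against the length of the locus in bases (log axis) for the members, 1 point each, coloured by library. Left of the dashed line at 300 bases FPKM climbs as length falls toward 150 bases, and 2 longer loci lie above the dotted line at 1000 FPKM.

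The highest member of each library and region was such a short locus. In Tcra/Tcrd the highest were 150 to 151 bases long and ranged from 123027 FPKM in WT replicate 2 to 4917310 FPKM in WT replicate 1. In Tcrg they were 150 to 151 bases long and ranged from 122525 FPKM in labelled-deficient replicate 3 to 6321560 FPKM in WT replicate 3, where the locus (chr13:19437342-19437491) overlapped Tcrg-C4. In Tcrb the highest was a 171-base locus at 1631 FPKM in labelled-deficient replicate 1, and 151-base loci at 113563 to 680270 FPKM in the other libraries. Loci shorter than 300 bases held 73.6% to 99.99% of the summed FPKM of a region in a library, so the sums below mostly show them.

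By position, 435 members (57.3%) covered no annotated segment. Another 137 (18.1%) covered variable segments alone, 85 (11.2%) diversity or joining segments, 73 (9.62%) a constant segment without a joining segment, and 29 (3.82%) both joining and constant segments. The last set was the longest and highest. All 29 were kept, with a median length of 10752 bases and 6.96 to 781 FPKM. Their median was 66.5 FPKM, against 18.1 FPKM for the 45 kept loci over a constant segment without a joining segment, 18.8 FPKM for 95 variable loci, 9.15 FPKM for 73 diversity or joining loci and 9.67 FPKM for 167 loci over no segment. Of the 29, 19 came from WT libraries (median 121 FPKM) and 10 from labelled-deficient libraries (median 33.9 FPKM). In the other classes the medians of WT and labelled-deficient loci were closer. They were 14.3 and 20.2 FPKM for constant loci, 19.5 and 18.3 FPKM for variable loci, 8.83 and 9.36 FPKM for diversity or joining loci, and 11.2 and 8.93 FPKM over no segment. These medians pool loci over libraries and were not tested.

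**Figure D2:**
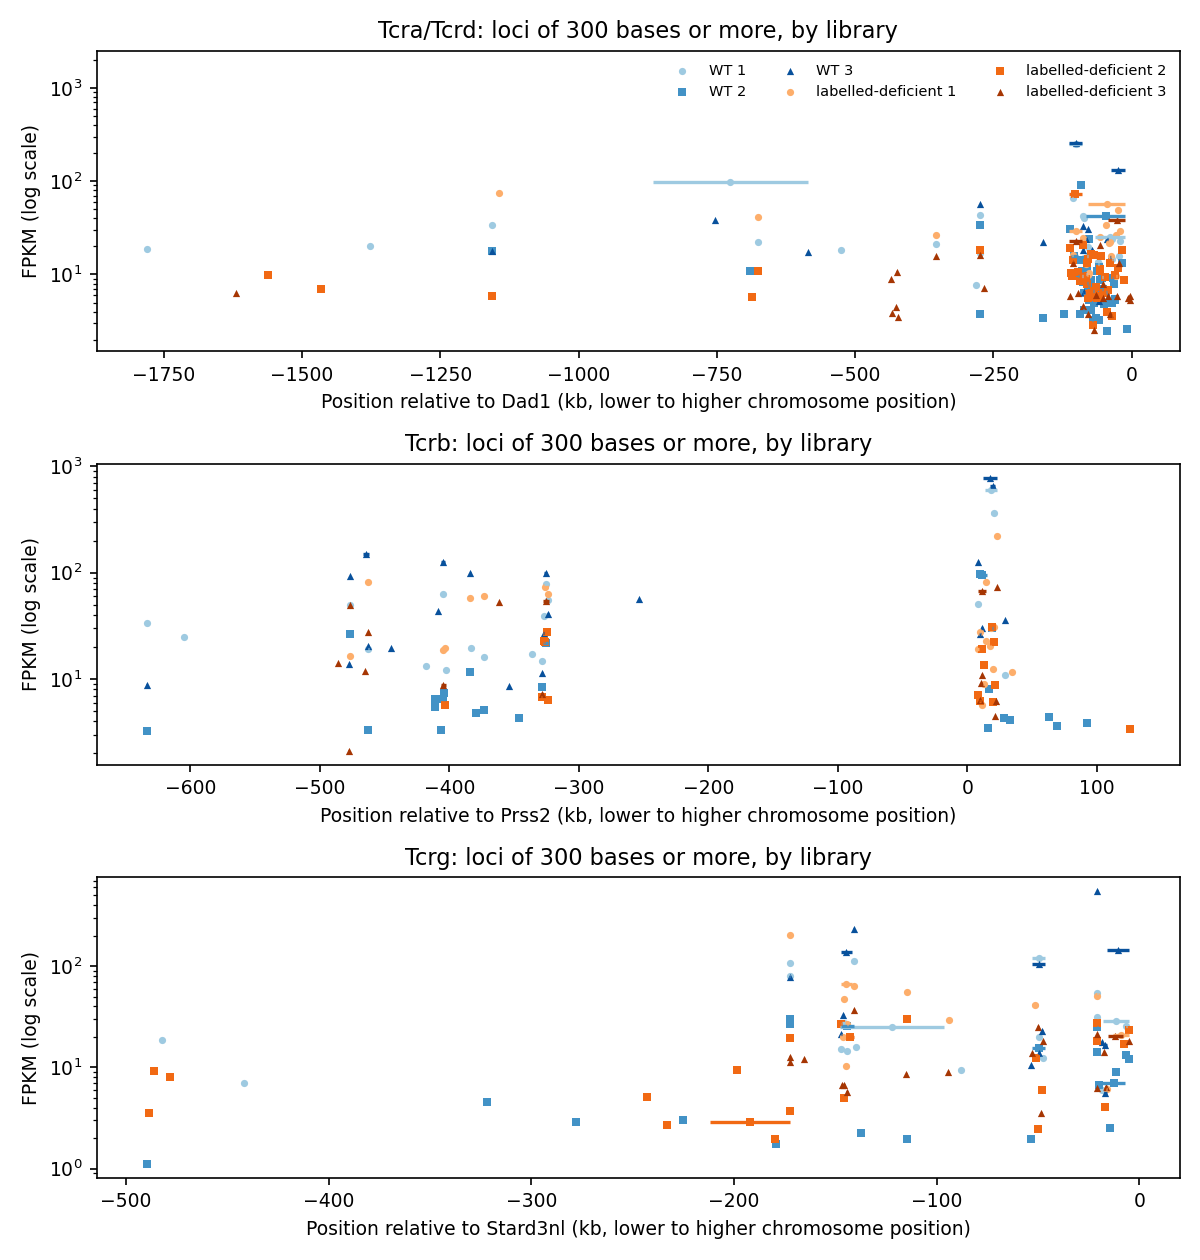
Kept loci along the 3 regions, with FPKM (log axis) against position relative to the ruler gene in kb. Bars span each locus and points mark its middle, coloured by library, and the highest values of Tcrb, up to 781 FPKM, lie over its constant segments.

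Some of the upstream edges of these 29 loci fell near the start of a joining segment. For 10 of the 29 loci the edge lay within 20 bases of such a start, and for 14 within 50 bases. None of the Tcrb loci lay within 20 bases. How often an edge would lie so near by chance was not tested. Over Trdc, the loci of WT replicate 1 (chr14:54742817-54765774), WT replicate 3 (chr14:54742817-54765526) and labelled-deficient replicate 3 (chr14:54742817-54765505) began at the same base, 2 bases before Trdj1. Over Tcrg-C1, the loci of WT replicate 3 (chr13:19302206-19307766), labelled-deficient replicate 1 (chr13:19302209-19307766) and WT replicate 2 (chr13:19302214-19308806) began within 6 bases of the start of Trgj1. That of WT replicate 1 (chr13:19301926-19353028) began 286 bases before Trgj1. Over Tcrg-C2, which is read from the other strand, the loci of WT replicates 1 and 2 ended at 19403178 and 19403160, within 13 bases of the start of Trgj2, and that of WT replicate 3 ended 31 bases inside it. Over Tcrg-C4, none of the 4 loci began within 100 bases of Trgj4. The closest, in labelled-deficient replicate 3 (chr13:19433889-19441451), began 132 bases before it.

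Trdc, the constant segment of the delta chain, separated the groups. Its highest kept locus was at 250, 91.7 and 254 FPKM across WT and 29.1, 73.7 and 22.8 FPKM across labelled-deficient libraries, or 198 ± 92.5 against 41.9 ± 27.7 FPKM (SD, n = 3 each). All WT values lay above all labelled-deficient values, with WT replicate 2 and labelled-deficient replicate 2 the closest pair. By highest kept locus this held for 1.16% of the tested intervals of overlapping loci without a symbol. The loci differed in extent. That of WT replicate 2 covered 3009 bases (chr14:54762492-54765500), and the other 5 covered 22689 to 23838 bases reaching back to Trdj1 or beyond. In labelled-deficient replicates 1 and 2 the locus began 883 and 1085 bases before Trdj1.

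Whether this difference exceeds the spread between libraries was tested with limma on log2(FPKM + 1) across every gene and every interval of overlapping loci without a symbol that reached 1 FPKM in at least 3 libraries, with 0 where a library had no kept locus. For the interval that holds Trdc and both delta joining segments (chr14:54741734-54765980), the log2 difference of the highest kept locus, labelled deficient minus WT, was -2.26 ± 0.60 (SE), with limma adjusted p = 0.265. It did not pass the threshold of 0.05, and neither did any of 25227 features in that fit. Leaving out 1 library in turn gave differences of -2.76 to -1.93 and adjusted p of 0.0657 to 0.648. The direction turned when the loci outside these limits were added back. With the FPKM of all loci of the interval added, as first planned, the log2 difference was 1.58 (limma adjusted p = 0.958), and -0.40 to 4.84 without each library in turn. Implied fragments were also counted in place of FPKM, per 1000000 implied fragments of the library (FPM below). The interval held 344, 222 and 148 FPM in WT and 69.7, 111 and 55.0 across labelled-deficient libraries, again without overlap. In bulk samples, fewer cells of a type and less RNA per cell cannot be told apart.

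**Figure D3:**
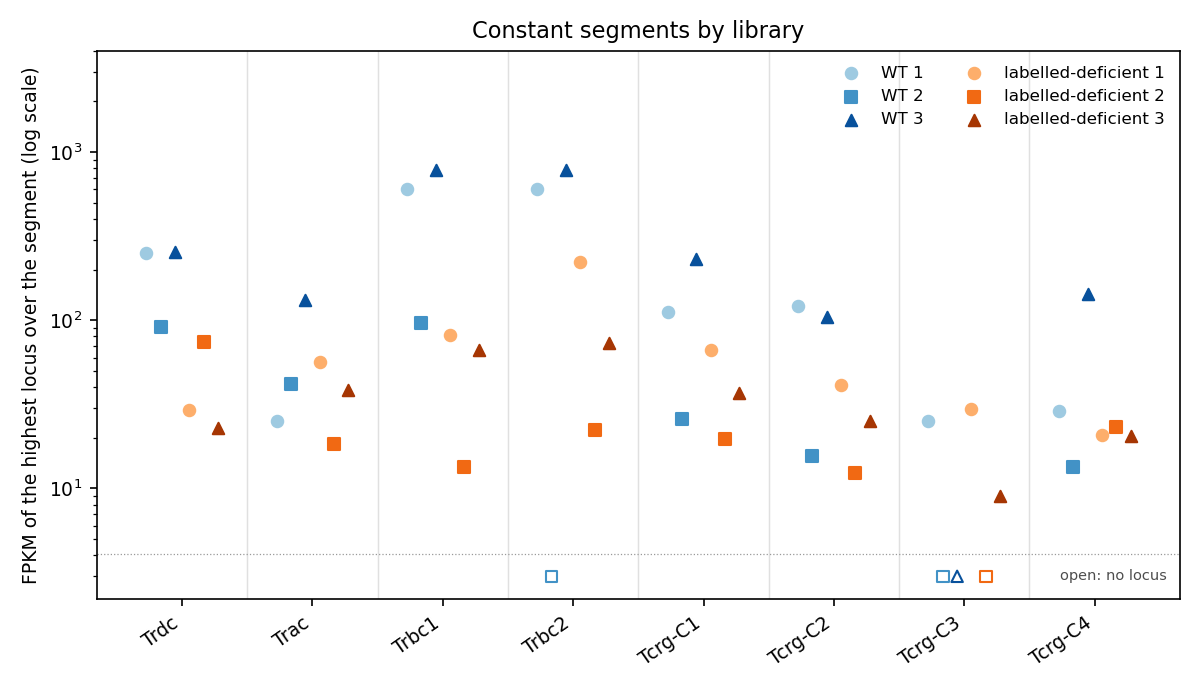
FPKM (log axis) of the highest kept locus over each constant segment, 1 point per library, with open symbols where a library had no such locus. The 3 WT points lie above the 3 labelled-deficient points for Trdc and Trbc1, and the groups overlap for the other 6 segments.

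Further along Trdc, 2 more intervals had loci in all 6 libraries. The interval chr14:54766052-54767245, over Trdc alone, held 18.5, 8.66 and 16.5 FPM in WT and 3.97, 5.65 and 1.82 across labelled-deficient libraries, without overlap. The interval chr14:54767459-54771040, which overlaps both Trdc and the inverted variable segment Trdv5, held 63.5, 12.2 and 22.8 against 12.7, 10.9 and 9.72, and WT replicate 2 fell below labelled-deficient replicate 1.

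Variable segments used by the delta chain were seen as short loci of their own. Trdv2-2 was at 42.9, 33.9 and 56.8 FPKM in WT, had no kept locus in labelled-deficient replicate 1 and was at 18.4 and 16.1 FPKM in the other 2 (log2 difference of its interval -2.69 ± 1.09, limma adjusted p = 0.506). Trav14d-3-dv8, a segment shared by alpha and delta, was at 33.7, 17.6 and 18.0 FPKM across WT, then at 5.86 FPKM in labelled-deficient replicate 2, with no kept locus in the other 2. Its interval had the smallest adjusted p of the receptor regions in this fit (chr14:53698122-53698716, log2 difference -3.60 ± 0.91, limma adjusted p = 0.259). With 0 where a library had no kept locus, both segments were higher in every WT library, against 1.16% of the intervals without a symbol in this fit. Trdv1 was the 1 tested receptor interval with a difference above 0, at 21.1 FPKM in WT replicate 1, then at 26.3 and 15.7 FPKM in labelled-deficient replicates 1 and 3, with no kept locus in the other 3 libraries (log2 difference 1.46 ± 1.72, limma adjusted p = 0.837). Trdv4 had kept loci in WT replicates 2 and 3 alone, at 3.41 and 22.5 FPKM. Trav15-1-dv6-1, also shared by alpha and delta, overlapped between the groups. It was at 22.5 and 10.8 FPKM in WT replicates 1 and 2 and at 41.5 and 10.8 FPKM in labelled-deficient replicates 1 and 2. Neither replicate 3 library had a kept locus of its own there. Trav15-2-dv6-2 had one in WT replicate 3 alone, at 17.4 FPKM.

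The longest member, of 279619 bases, ran in WT replicate 1 from Trav14n-3 to Trav15-2-dv6-2 (chr14:53989948-54269566) at 97.0 FPKM, with a deposited interval of 48.5 to 146 FPKM from 16.0 implied fragments. Its interval spans 28 variable segments and held 36.0, 5.56 and 16.5 FPM in WT and 16.9, 8.39 and 12 across labelled-deficient libraries, which overlapped. Of 136 variable segments annotated in Tcra/Tcrd, 7 had a kept locus of their own in any library.

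Trac, the constant segment of the alpha chain, did not separate the groups. Its highest kept locus was at 25.2, 42.0 and 131 FPKM across WT and 56.3, 18.5 and 38.7 FPKM across labelled-deficient libraries, or 66.2 ± 57.0 against 37.8 ± 18.9 FPKM (SD, n = 3 each). The lowest WT value lay below 2 of the labelled-deficient values. The interval of the joining array with Trac (chr14:54772666-54843877) covers 61 segments and had a log2 difference of -0.58 ± 0.68 for its highest kept locus (limma adjusted p = 0.837), and of 4.74 with all its loci added (limma adjusted p = 0.86). It held 173, 223 and 152 FPM in WT and 216, 164 and 90.4 across labelled-deficient libraries. The loci over Trac reached back by very different lengths, from 9089 bases in labelled-deficient replicate 2 to 69899 bases in WT replicate 2 (chr14:54773492-54843390). The joining segment nearest the upstream edge was a different one in each library. It was Traj49 in WT replicate 1, Traj27 in labelled-deficient replicate 3 and Traj21 in WT replicate 3, each starting 16 to 26 bases before the edge. In the other 3 libraries the nearest (Traj61, Traj58 and Traj5) started 94 to 1194 bases away. Between them, 68 members covered joining segments of Tcra without a constant segment, 24 of them from WT replicate 2 and 17 from labelled-deficient replicate 2.

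Trbc1, the first constant segment of the beta chain, also had every WT value above every labelled-deficient value. The interval that holds both beta constant segments, given below, overlapped in FPKM. Its highest kept locus was at 604, 95.6 and 781 FPKM across WT and 81.2, 13.5 and 66.5 FPKM across labelled-deficient libraries, or 494 ± 356 against 53.7 ± 35.6 FPKM (SD, n = 3 each). The gap was narrow at its closest, between WT replicate 2 and labelled-deficient replicate 1. In WT replicates 1 and 3 the locus over Trbc1 also covered Trbc2, 9220 and 10752 bases in all (chr6:41489127-41498346 and chr6:41487565-41498316), so these 2 values stand for both segments. Trbc2 had no locus in WT replicate 2, and was at 604 and 781 FPKM in the other WT libraries and at 223, 22.4 and 73.5 FPKM across labelled-deficient libraries.

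The whole stretch from the diversity segment Trbd1 to Trbc2 (chr6:41482830-41498346) formed 1 interval, so that reads split between the copies stay within it. Its highest kept locus was at 604, 98.1 and 781 FPKM across WT and 223, 30.7 and 73.5 FPKM across labelled-deficient libraries, which overlapped because labelled-deficient replicate 1 exceeded WT replicate 2. The log2 difference was -2.16 ± 0.97 (limma adjusted p = 0.607). By fragments it held 270, 476 and 289 FPM in WT and 163, 108 and 77.2 across labelled-deficient libraries, without overlap. This count leaves out the loci from Trbj2-1 to Trbc2 in WT replicate 3 (650 FPKM) and from Trbj2-4 to Trbc2 in labelled-deficient replicate 2 (22.4 FPKM), whose deposited intervals are so wide that they imply no fragment. In WT replicate 2 the loci ran from Trbd1 to Trbj1-7 at 98.1 FPKM (chr6:41482988-41486723) and from Trbd1 to Trbc1 at 95.6 FPKM (chr6:41482988-41490036).

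Of 35 annotated variable segments of Tcrb, 16 had a kept locus of their own in at least 1 library. Trbv3 was at 49.2, 26.7 and 93.4 FPKM across WT, then at 16.4 and 49.3 FPKM in labelled-deficient replicates 1 and 3, with no kept locus in replicate 2. Trbv5 was at 19.2, 3.32 and 20.5 FPKM across WT, then at 82.5 and 27.6 FPKM in labelled-deficient replicates 1 and 3, again without a locus in replicate 2. Both overlapped between groups. Trbv15 was at 19.5, 11.7 and 100 FPKM across WT, then at 57.3 FPKM in labelled-deficient replicate 1 alone. Trbv1, at the upstream end of the region, was at 33.6, 3.24 and 8.70 FPKM in WT with no kept locus in any labelled-deficient library. Its interval (chr6:40841237-40841929, log2 difference -3.49 ± 1.08, limma adjusted p = 0.30) passed the filter through WT alone, so its direction was fixed by the filter. The interval of Trbv12-2 and Trbv13-2 was seen in all 6 libraries, at 28.6, 18.7 and 31.3 FPM in WT and at 17.0, 3.23 and 22.2 across labelled-deficient libraries, which overlapped.

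An interval without any annotated receptor segment was among the most covered in the 3 regions. It lay between Trbv20 and Trbv21 by the GENCODE spacing (chr6:41147554-41151818), 4265 bases long. Its highest kept locus was at 78.0, 22.0 and 99.6 FPKM across WT and 73.6, 27.6 and 53.9 FPKM across labelled-deficient libraries. It held 433, 172 and 355 FPM in WT and 412, 115 and 460 across labelled-deficient libraries. The ranges of the groups overlapped widely, and in each the replicate 2 library was lowest. The log2 difference of the highest kept locus was -0.21 ± 0.64 (limma adjusted p = 0.916).

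The gamma constant segments were mostly higher in WT but overlapped in FPKM. Tcrg-C1 was at 111, 25.7 and 232 FPKM across WT and 66.5, 19.8 and 37.1 FPKM across labelled-deficient libraries. Tcrg-C2 was at 121, 15.6 and 104 FPKM across WT and 41.1, 12.4 and 25.0 FPKM across labelled-deficient libraries. Both overlapped because WT replicate 2 fell below 2 of the labelled-deficient libraries. Tcrg-C4 was at 28.9, 13.4 and 144 FPKM across WT and 20.8, 23.2 and 20.4 FPKM across labelled-deficient libraries, with WT replicate 2 the lowest of all 6. Tcrg-C3 had a kept locus at 25.3 FPKM in WT replicate 1, from a 51103-base locus that also covered Tcrg-C1 (chr13:19301926-19353028), and at 29.5 and 8.97 FPKM in labelled-deficient replicates 1 and 3. It had none in the other 3 libraries.

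Counted in implied fragments, 2 of the gamma constant intervals had every WT library above every labelled-deficient library. That held for 3.07% of the intervals with loci in all 6 libraries over the genome. By exact two-sided permutation both had p = 0.1, the smallest this design allows, and adjusted p = 0.25. The interval of Tcrg-C2 and Trgj2 (chr13:19396538-19403178) held 226, 116 and 116 FPM in WT and 47.4, 50.02 and 29.97 across labelled-deficient libraries. The interval of Tcrg-V1, Trgj4 and Tcrg-C4 (chr13:19430757-19445210) held 165, 46.7 and 123 against 23.2, 31.8 and 35.8. The interval from Trgj1 to Tcrg-C3 (chr13:19301926-19353049) held 247, 51.4 and 145 against 110, 64.6 and 53.9, and overlapped through WT replicate 2. The limma log2 differences of the highest kept locus were -1.29 ± 0.82 for Tcrg-C2, -0.82 ± 0.78 for Tcrg-C4 and -1.04 ± 0.78 for Trgj1 to Tcrg-C3 (limma adjusted p = 0.837 each).

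Gamma variable segments were seen in all libraries. Tcrg-V4 was at 108, 29.98 and 78.6 FPKM across WT and 204, 19.4 and 12.6 FPKM across labelled-deficient libraries. The highest value was in labelled-deficient replicate 1, on a 351-base locus with 35.1 implied fragments. Over the whole interval that it shares with Tcrg-V7 (chr13:19237706-19277372), the counts were 39.7, 28.1 and 40.7 FPM in WT and 11.7, 16.4 and 8.49 across labelled-deficient libraries, without overlap. FPKM and fragments thus ordered labelled-deficient replicate 1 differently. Trgv2 was at 54.4, 24.9 and 553 FPKM across WT and 51.1, 27.3 and 21.2 FPKM across labelled-deficient libraries, where the 501-base locus of WT replicate 3 stood far above the rest. Tcrg-V3 was at 1.97 FPKM in WT replicate 2, the only WT library with a kept locus of its own, and at 55.8, 30.4 and 8.52 FPKM across labelled-deficient libraries, from 11 to 28.0 implied fragments per locus. The 51103-base kept locus of WT replicate 1 (chr13:19301926-19353028), at 25.3 FPKM, also ran across Tcrg-V3. With that locus counted the groups overlapped, since it lay above the value of labelled-deficient replicate 3. Tcrg-V3 falls within the interval from Trgj1 to Tcrg-C3 and was not tested on its own. Of 7 annotated gamma variable segments, 6 had a kept locus of their own.

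Most intervals were seen in 1 library. The 759 loci merged into 210 intervals, of which 166 (79.0%) occurred in 1 library, against 76.3% of 380474 intervals without a symbol in the genome. At the other end, 15 intervals (7.14%) had loci in all 6 libraries, against 0.394% in the genome. These 15 can be compared without gaps. In FPM the mean was lower across labelled-deficient libraries for 14 of 15, against 34% of the 1498 such intervals in the genome. The exception was the long interval without a segment near Trbv20, whose ratio of means was 1.03. In 6 of the 15 every WT library lay above every labelled-deficient library, against 3.07% in the genome. The reverse held in 0 of 15, against 168 of the 1498 in the genome. The 6 were the intervals of Trdc with its joining segments, Trdc alone, Trbd1 to Trbc2, Tcrg-V7 with Tcrg-V4, Tcrg-C2, and Tcrg-C4. The median ratio of labelled-deficient to WT means was 0.381 over the 15 and 1.23 over the genome. By exact two-sided permutation each of the 6 had p = 0.1, the smallest that 3 libraries against 3 allow, and adjusted p = 0.25 over the 15. Without 1 library in turn, 6 to 9 of the 15 had WT above. These counts were added after the values were seen.

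**Figure D4:**
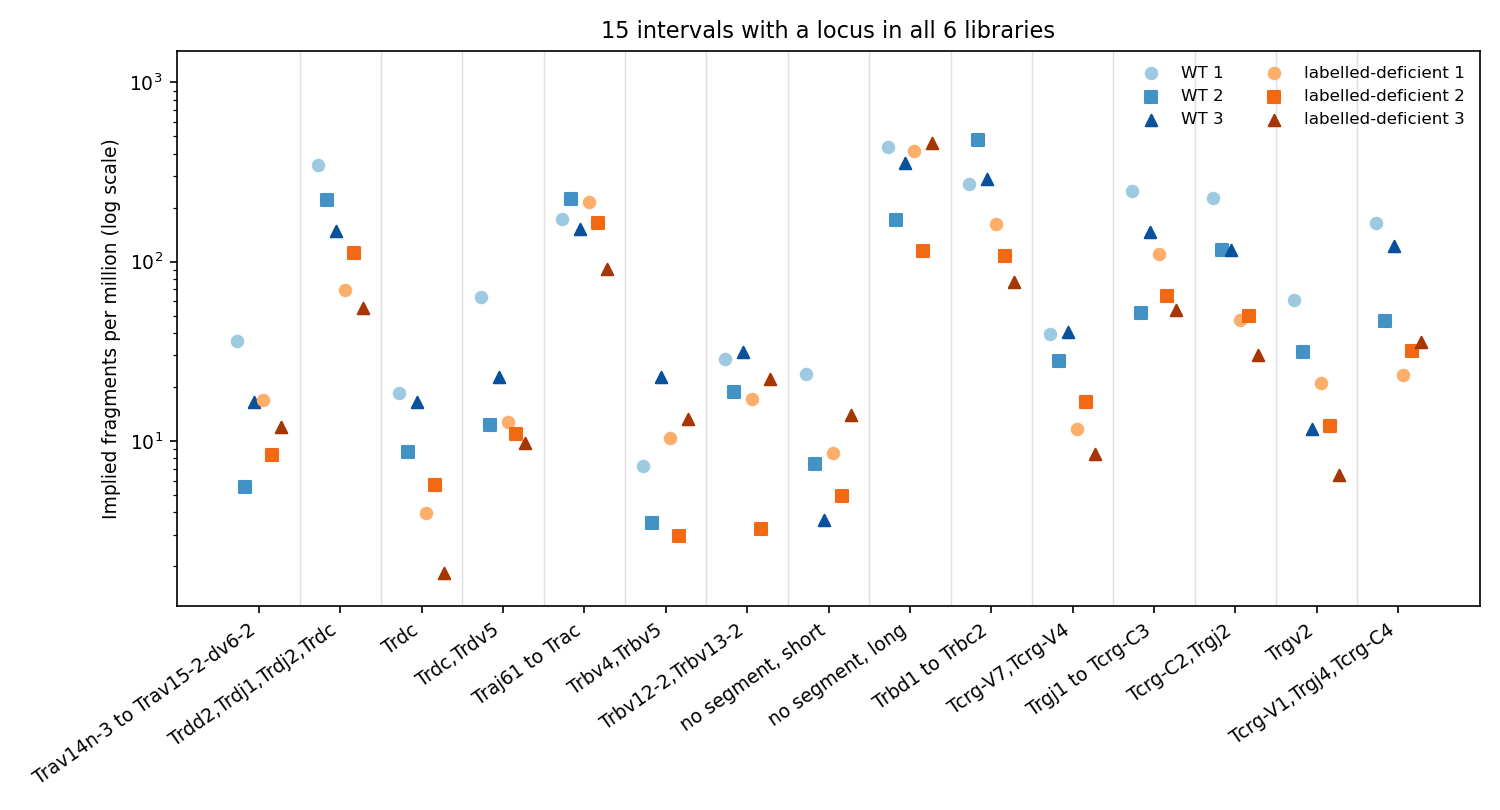
Implied fragments of each library, in FPM (log axis), in the 15 intervals with a locus in all 6 libraries, 1 point per library. WT points lie above labelled-deficient points in 6 intervals, among them Trdc with its joining segments and Trbd1 to Trbc2, and mix in the long interval without a segment.

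Summed over a whole region, FPKM overlapped between the groups in all 3 regions. The log2 difference of the summed FPKM, labelled deficient minus WT, was 0.14 in Tcra/Tcrd (exact two-sided permutation p = 1.0), -3.49 in Tcrb (p = 0.3) and -1.51 in Tcrg (p = 0.5), with adjusted p of 1.0, 0.75 and 0.75 over the 3 regions. The smallest p this design allows is 0.1. Leaving out 1 library in turn kept the difference below 0 in Tcrb and Tcrg and turned it in Tcra/Tcrd (-1.43 to 1.08). With the kept loci alone the sums in Tcra/Tcrd were 732 ± 169 FPKM in WT and 434 ± 151 FPKM across labelled-deficient libraries (SD, n = 3 each), a log2 difference of -0.80 with groups apart (exact permutation p = 0.1, adjusted p = 0.3). In Tcrb they were 1441 ± 1046 and 499.9 ± 348 FPKM (-1.40, exact permutation p = 0.3), and in Tcrg 786 ± 592 and 386 ± 222 FPKM (-0.79, exact permutation p = 0.6). Levels in FPM differed without overlap in all 3 regions, at 553 ± 173 against 318 ± 65.5 in Tcra/Tcrd, 789 ± 66.1 against 510 ± 224 in Tcrb and 512 ± 254 against 190 ± 37.8 in Tcrg (SD, n = 3 each). Each had exact permutation p = 0.1 and adjusted p = 0.1 over the 3 regions.

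The tests across all features called nothing. With the FPKM of all loci of an interval added, limma tested 46590 features, 31 of them receptor intervals. It called 0 of the 31 and 0% of all features at an adjusted p under 0.05, with 2739 of 46590 at an unadjusted p under 0.05. Of the 31, 3 were lower at an unadjusted p under 0.05, against 1.07% of all features. These were Trav14d-3-dv8, Trbv1 and an interval without a segment downstream of Trbc2, and the last 2 had loci in WT alone, so the filter fixed their direction. The difference was below 0 for 20 of the 31, with a median of -1.60, against 38.3% of the 35527 intervals without a symbol and a median of 1.05. Without WT replicate 3 it was below 0 for 10 of 26, with a median of 0.86. With the highest kept locus of each interval, 23 receptor intervals of 210 passed the filter and 0 were called, against 0% of 25227 features, with 2270 of 25227 at an unadjusted p under 0.05. Of the 23, 5 were lower at an unadjusted p under 0.05, against 1.54% of all features. These 5 include Trbv1 and the interval downstream of Trbc2, whose direction the filter fixed, so the 2 shares are not alike. With the highest kept locus the difference was below 0 for 22 of the 23, with a median of -1.63. Of the 14164 intervals without a symbol in that fit, 25.6% were below 0 and their median was 1.03. Of the 23, 2 passed the filter through WT alone and 0 through the labelled-deficient libraries alone, so the count is not evidence of its own. In 6 of the 23 every WT value lay above every labelled-deficient value, against 1.16% of intervals, and 5 of these 6 had a labelled-deficient library without a kept locus. The 2 that passed through WT alone were again Trbv1 and the interval downstream of Trbc2 (chr6:41503372-41504236, at 10.8, 4.30 and 36.1 FPKM across WT). All 10 receptor intervals with a kept locus in each of the 6 libraries had a difference below 0. In 1 of these 10, that of Trdc with its joining segments, the groups did not overlap.

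**Figure D5:**
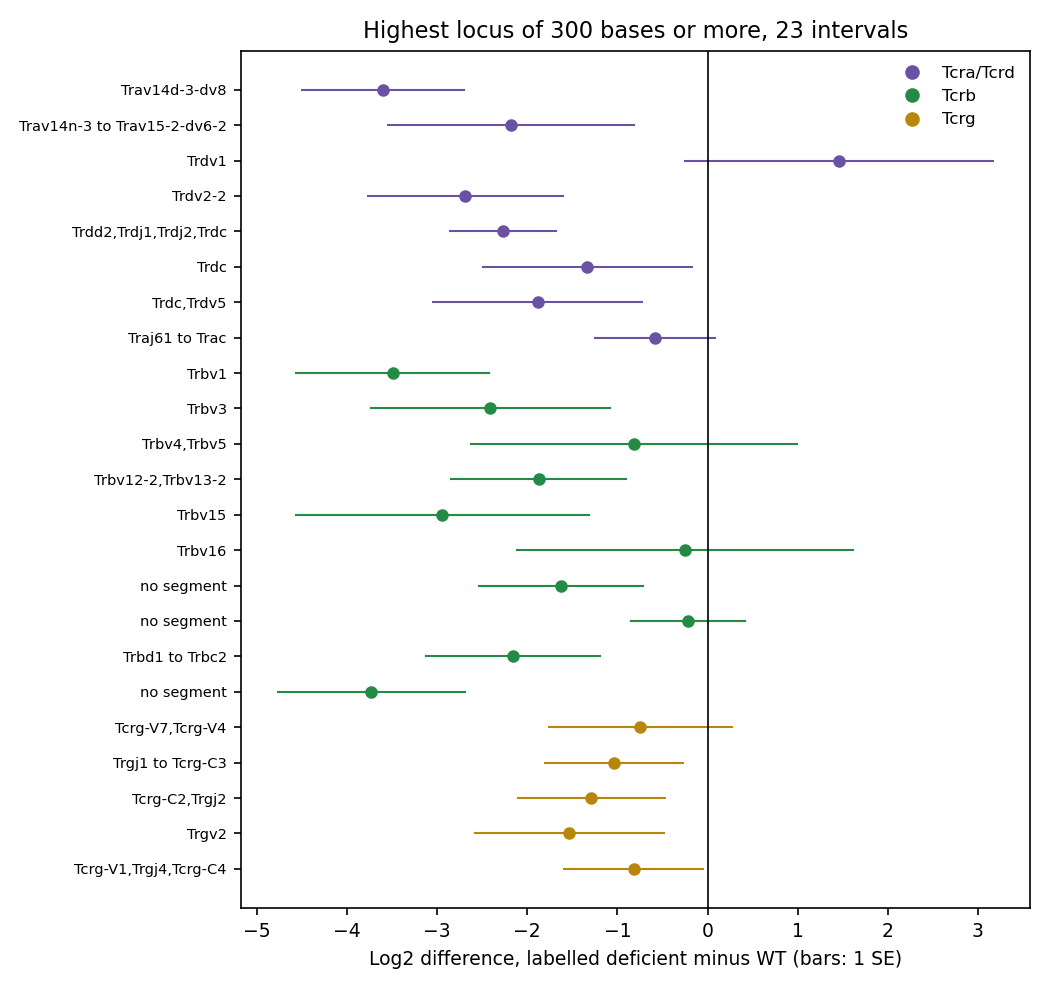
Log2 difference of the highest kept locus, labelled deficient minus WT, for the 23 receptor intervals that passed the filter, with bars of 1 SE and colours for the region. Of the 23, 22 lie below 0, from -3.73 to -0.21, and Trdv1 lies above it.

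The partners of the receptor chains were read from a list of 15 genes with symbols, namely the CD3 chains, pre-T alpha, the recombinase and end-joining factors, and the proximal kinases and adaptors. Of these, 14 passed the filter, and Ptcra, the chain that pairs with a new beta chain, did not, at 0 to 1.38 FPKM. Fitted with the intervals, 0 of the 14 passed (0% of all features). Fitted among genes with a symbol alone, 1 fell and 0 rose, against 0.75% of 11063 genes called and 0.108% called lower. The one that fell was Dntt, which adds nucleotides at the junctions of joined segments, at 93.3, 207 and 257 FPKM across WT and 15.9, 5.98 and 1.99 FPKM across labelled-deficient libraries (log2 difference -4.60 ± 0.65, limma adjusted p = 0.0279, and 0.796 when the intervals are fitted with the genes). Over the 14 the difference was below 0 for 10 and above 0 for 4, with a median of -0.73 against 0.04 for all genes.

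Cd247, the zeta chain that signals for the receptor, was at 104, 39.7 and 106 FPKM across WT and 22.6, 12.1 and 11.7 FPKM across labelled-deficient libraries, without overlap (limma adjusted p = 0.0897 among genes alone). Cd3e, a CD3 chain, was at 78.8, 36.6 and 88.3 FPKM against 71.3, 25.1 and 16.0 FPKM, and overlapped. The recombinase genes were low in every library. Rag1 was at 1.27, 1.36 and 4.38 FPKM across WT and 4.56, 2.59 and 1.45 FPKM across labelled-deficient libraries, and Rag2 at 0, 0.12 and 1.2 FPKM against 1.28, 0.942 and 1.001 FPKM.

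Markers of other cell types were read from the same libraries. The gate is meant to remove most of these types, since B and NK cells bear lineage markers and mature alpha-beta T cells bear TCRb. The 7 B-cell markers, none at 0 in any library, summed to 29.3 to 96.0 FPKM in WT and 522 to 812 FPKM across labelled-deficient libraries, and all 7 were higher in every labelled-deficient library, against 8.67% of genes with a symbol. The 9 markers of mature alpha-beta T cells summed to 87.8 to 118 FPKM in WT and 136 to 299 FPKM across labelled-deficient libraries, but did not move together. Klf2, S1pr1 and Ccr7 were higher in every labelled-deficient library, Cd6 and Cd28 were higher in every WT library (as were 6.56% of genes), and the other 4, Cd4, Cd8a, Cd8b1 and Cd5, overlapped. Without Klf2 the sums overlapped, at 50.8 to 93.4 FPKM in WT and 54.3 to 121 FPKM across labelled-deficient libraries. Cd8a was at 0 in labelled-deficient replicate 3 and at 2.48 FPKM or less elsewhere.

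Among markers of gamma-delta and innate-like T cells, Sox13, 5830411N06Rik and Il17rb were higher in every WT library, against 6.56% of genes. Blk was higher in every labelled-deficient library, against 8.67% of genes. Cd163l1, Il23r, Maf, Zbtb16 and Il17a overlapped, with Il17a at 0 in labelled-deficient replicate 1. Sox13 was at 91.1, 30.8 and 39.0 FPKM across WT and 12.3, 7.34 and 1.66 FPKM across labelled-deficient libraries, and Blk at 44.3, 38.0 and 29.9 FPKM against 83.6, 118 and 46.0 FPKM. The 5 NK markers summed to 11.2 to 71.0 FPKM in WT and 31.8 to 39.8 FPKM across labelled-deficient libraries, led by Gzma, with Ncr1 at 0 in 5 libraries. Of the 5, Eomes was higher in every WT library, against 6.56% of genes, and the other 4 overlapped. Eomes was low throughout, at 4.76, 1.09 and 2.78 FPKM across WT and 0.0591, 0.142 and 0 FPKM across labelled-deficient libraries. Among markers of the gate, Cd44 was at 27.5 to 74.3 FPKM over the 6 libraries. Il2ra, which encodes CD25, was at 2.83, 3.59 and 1.69 FPKM across WT and 6.75, 7.36 and 4.22 FPKM across labelled-deficient libraries. Of the 7 gate markers it was the 1 higher in every labelled-deficient library, against 8.67% of genes, and the other 6 overlapped. The part of these cells in the differences at the receptor loci was not tested.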

How the data were processed

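RNA-seq tables of 6 libraries were used, 1 per library. The values are FPKM with a lower and an upper bound, as the authors deposited them, and per the file headers each row is a gene or an assembled locus with its position. The submitters' processing notes name build mm9, Trimmomatic 0.38, TopHat2 2.1.1 and featureCounts 2.0.1. How FPKM was computed is not given in those notes. Starts count from 0 in the tables and were raised by 1.

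Members and lists were chosen with earlier results of these data known. Loci overlapping by at least 1 base across libraries were merged into intervals, and genes that share a row into units. Log2(FPKM + 1) values with at least 1 FPKM in 3 libraries were tested with limma 3.58.1 (R 4.3.3; trend, robust, Benjamini-Hochberg over all features, groups WT and labelled deficient), checked on simulated data. Region sums and interval fragments were tested by exact permutation. Implied fragments are the squared ratio of FPKM to its SD, taking each bound as 2 SD away. They are approximate, run low where loci share reads, and cover counting error only. Tables were read with Python 3.11.15 and pandas 2.3.3, and coding sequences were aligned with Biopython 1.88.

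Named intervals are those past the threshold, up to 6 a region seen in all libraries by mean FPKM, those over a constant segment, the highest locus of each library and the longest. Others named were chosen after their values were seen. Partner genes named are those past the threshold and Cd247, Cd3e, Ptcra, Rag1, Rag2 and Dntt. The planned sums were kept as the first test. Kept loci (300 bases or more, 1000 FPKM or less), implied fragments and genes fitted alone were added after the data were seen. A marker of gamma-delta and innate-like T cells, and the sum of that list, are not reported here.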

Additional observations from a re-analysis of the deposited data

How the results depend on the processing

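The number of receptor intervals past the threshold was 0 in every fit run. Over all features it was 0 as well, except 10 with the highest kept locus without WT replicate 3 and 83 with genes alone. Without each library the log2 difference of the summed FPKM ranged from -1.43 to 1.08 in Tcra/Tcrd, -4.93 to -1.20 in Tcrb and -2.77 to -0.23 in Tcrg. In Tcra/Tcrd it turned to -0.80 with kept loci and -0.77 with implied fragments. With kept loci the members numbered 187 of 385 in Tcra/Tcrd, 114 of 193 in Tcrb and 108 of 181 in Tcrg. Lower depth limits WT replicate 1 and labelled-deficient replicate 1 most.

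Of 16 named intervals tested on summed FPKM, these changed sign with kept loci added, and with the highest kept locus. The interval of Tcrg-V7 and Tcrg-V4 went from 3.61 to -0.73 and -0.75. Trav14n-3 to Trav15-2-dv6-2 went from 3.61 to -2.57 and -2.18, Trdc with its joining segments from 1.58 to -1.78 and -2.26, and Trdc alone from 4.74 to -1.59 and -1.33. Trdc with Trdv5 went from 3.42 to -2.64 and -1.88, Traj61 to Trac from 4.74 to -0.15 and -0.58, Trbv4 with Trbv5 from 2.55 to -0.71 and -0.82, and the short interval without a segment (chr6:41146249-41147392) from 0.80 to -1.63 in both. By construction, kept loci leave out the short loci that fill the sums.

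Leaving out 1 library turned the sign of 12 named values. The ranges were -4.89 to 0.99 for Trgj1 to Tcrg-C3 (main -2.58), -3.23 to 0.14 for the locus over Tcrg-C3 (-1.23), -5.60 to 1.18 for Tcrg-C2 (-2.81), -5.89 to 3.17 for Tcrg-C4 (-2.08), -1.30 to 6.27 for Trav14n-3 to Trav15-2-dv6-2, -0.40 to 4.84 for Trdc with its joining segments, and -0.81 to 6.36 for Trdc with Trdv5. They were -4.38 to 3.73 for Trbv12-2 with Trbv13-2 (-0.50), -0.63 to 1.53 for the short interval without a segment, -1.02 to 0.44 for the long one (-0.05), -4.83 to 0.91 for Trbd1 to Trbc2 (-2.56), and -0.048 to 0.66 for Rag1 (0.25). The cause was not tested.

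Replicate numbers are shared between groups, but the labels do not say that a number marks a shared animal or day. Same-numbered libraries correlated at 0.08, 0.18 and 0.17 in their deviations from the group means, and each library correlated best with its own number, a hint from the data and not the design. With the replicate block, limma called 0 features and 0 receptor intervals, as without it.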
